A study of Mus musculus with 108 samples.

Results

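Peroxiredoxins and the enzymes that act beside them remove superoxide and hydrogen peroxide from cells. The genes described here are 10 mouse genes: the 6 peroxiredoxins Prdx1 to Prdx6, the copper and zinc superoxide dismutase Sod1, the glutathione peroxidase Gpx1, the thioredoxin Txn1 and the catalase Cat. They were chosen by symbol, and each matched 1 row of a deposited expression table of 45195 gene rows, so all 10 of 10 were measured. They were followed over all single cells of the series (21 short-total and 87 full-total cells, terms explained below) from the pancreas of untreated male C57BL/6 mice aged 12 weeks. The cells were acinar cells, which make and secrete digestive enzymes, and each GEO sample was 1 cell prepared by a modified SMART-seq2 protocol, a full-length cDNA method without molecular identifiers. Tissue was digested with collagenase, acini were treated with Accutase, and single cells were collected into lysis buffer. The labels put all cells in 1 group, name no animal, plate or day and give no read depth, so all cells together count as 1 sample. Cells are called here by the number in their title. Every SD and range below is the spread between cells, and no p-value was computed.

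Peroxiredoxins reduce hydrogen peroxide with a reactive cysteine, the peroxidatic cysteine, and most of them are then reset by thioredoxin, which thioredoxin reductase recharges with NADPH. Superoxide dismutases turn superoxide into hydrogen peroxide, glutathione peroxidases reduce peroxides at the expense of glutathione, and catalase splits hydrogen peroxide inside peroxisomes. In a secretory cell hydrogen peroxide also arises in the endoplasmic reticulum (ER), where Ero1 oxidases and protein disulfide isomerases form the disulfide bonds of secreted proteins. Prdx4 is the peroxiredoxin of the ER lumen and can pass the oxidizing power of hydrogen peroxide to protein disulfide isomerases. Prdx1, Prdx2, Prdx6, Sod1, Gpx1 and Txn1 are mainly cytosolic, Prdx3 is mitochondrial, Prdx5 is counted here as mitochondrial although its protein also reaches other compartments, and Cat is peroxisomal. These assignments are textbook knowledge of the main site of each protein and were not measured in these cells.

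The coding sequence around the reactive residue shows how alike the members are, and the letters that differ are what tells their reads apart. The sequences are reference coding sequences from GENCODE M21 on GRCm38, written 5′ to 3′ on the coding strand, and the capitals mark the codon of the peroxidatic cysteine. The ER enzyme Prdx4 lies on the minus strand and its window spans an intron within chrX:155332448-155334848, with the cysteine at codon 127 of 274, stop codon included. The cytosolic Prdx1 window is at chr4:116691802-116691837 on the plus strand, Prdx2 at chr8:84970462-84970497 on the plus strand and Prdx6 at chr1:161247356-161247391 on the minus strand. The mitochondrial Prdx3 window spans an intron within chr19:60870115-60871430 and the Prdx5 window spans one within chr19:6907668-6908011, both on the minus strand.
Prdx4: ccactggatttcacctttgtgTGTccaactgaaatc
Prdx1: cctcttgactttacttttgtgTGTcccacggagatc
Prdx2: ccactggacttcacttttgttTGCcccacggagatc
Prdx6: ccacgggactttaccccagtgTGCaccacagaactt
Prdx3: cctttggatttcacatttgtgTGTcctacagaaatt
Prdx5: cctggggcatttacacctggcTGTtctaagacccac
The longest run of identical coding letters that Prdx4 shared with another peroxiredoxin was 23 bases with Prdx2, 17 with Prdx1, 17 with Prdx3, 10 with Prdx5 and 10 with Prdx6. All of these are shorter than the stated read length of 100 bases. No run of 100 exonic bases of Prdx4, Prdx6, Gpx1, Txn1, Prdx3 or Cat was found in any other annotated gene.

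The remaining active sites are of other kinds. Gpx1, at chr9:108339430-108339465 on the plus strand, reads a stop codon as selenocysteine, and the capitals mark that codon. Txn1, at chr4:57951812-57951847 on the minus strand, works through a pair of cysteines, and the capitals run from the first cysteine codon to the second.
Gpx1: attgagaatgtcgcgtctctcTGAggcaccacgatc
Txn1: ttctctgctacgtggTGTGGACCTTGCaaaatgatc
A few members share exonic sequence with a neighbour or a pseudogene. For Prdx5, 12.3% of its 100-base runs lay in Trmt112 on the opposite strand, and for Prdx2, 2.45% lay in Junb and 1.75% in Rnaseh2a, also on the opposite strand. Whether the counting used strand is not given in the sources used here, so Prdx2 and Prdx5 are the less certain members. Over all cells Prdx5 and Trmt112 had a Spearman correlation of -0.10 (Pearson -0.18, -0.12 without the 2 farthest cells), and Prdx2 had 0.09 with Junb (Pearson 0.17, 0.13 without the 2 farthest cells) and 0.10 with Rnaseh2a (Pearson 0.15, 0.11 without them). Pseudogenes that share runs with Prdx1 (Gm7204, Gm21399), Prdx2 (Tdpx-ps1) and Sod1 (Gm8566) were listed at 0 in every cell, as was Prdx6b, a retrogene of Prdx6.

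The cells were acinar by their markers. All 10 of 10 acinar markers were detected at or above 1 TPM (transcripts per 1000000, a read share corrected for transcript length) in every cell, and digestive enzyme genes took 88.7% ± 2.39 of all TPM (SD over cells). Erythrocytes and macrophages are rich in several of the 10 enzymes, and their markers were low. Of 7 erythrocyte markers, 2 were detected in any cell, and Hbb-bt, Alas2 and Slc4a1 were listed at 0 throughout. Of 9 macrophage markers, 3 were detected in any cell and at most 2 in 1 cell, and 4 were listed at 0 throughout. The most frequent was C1qa, in 16 cells and up to 4.83 TPM. No lymphocyte marker of 8 was detected. Of 8 endocrine markers, 3 were detected in any cell, among them Ins2 in 4 cells and up to 7.92 TPM. Ductal markers numbered 2 to 8 of 10 per cell. In 21 cells, with numbers from 92 upward, the deposited TPM summed to 788380 at the least and 990520 at the most, and these are called short-total cells. The remaining 87, called full-total cells, reached 1000000 apart from rounding. The labels do not say why. The study's design text states that 24 cells received spike-in RNA without saying which, spike-in rows were not analysed here, and their part in the totals and in every comparison of the 2 sets was not tested. Cells 31 and 40 stood apart, with 11 and 12 of 12 cell cycle genes detected where no other cell had more than 1, and cell 40 also had 6 of 8 endothelial markers, so values that rest on these 2 cells are given with and without them. Cell 96, a short-total cell, had 4 of 8 stellate cell markers, and no member had its highest or lowest value there. Summed erythrocyte markers reached 1.92 TPM in short-total cells, against 0.73 TPM in full-total cells, and macrophage markers 2.91 TPM, against 6.02 TPM. Ductal markers summed to 147.8 to 568.9 TPM in short-total cells, against 125.2 to 750.9 TPM in full-total cells, and their part in the results was not tested.

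Prdx4 was the most abundant of the 10 transcripts in every cell (100%, exact 95% interval from 96.6%). It averaged 148.6 ± 31.9 TPM (SD over cells). The lowest value was 81.4 TPM in cell 91, the median 141.7 TPM, and the highest 240.25 TPM in Cell__number_113. Its mean ranked 116 among all 45195 rows and 81 once the digestive enzyme genes were set aside. The ER peroxiredoxin thus stood within a 2.95-fold range over all cells, the narrowest range of the 10 members. The next level belonged to Sod1, the main cytosolic superoxide dismutase, at 53.4 ± 16.2 TPM, which had the second highest value in 99 cells. Its lowest value was 13.5 TPM in cell 48, its median 52.6 TPM and its highest 97.7 TPM in cell 88.

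The other cytosolic members lay between 10 and 30 TPM on average. Gpx1, the cytosolic glutathione peroxidase, averaged 27.6 ± 11.3 TPM, and its lowest, median and highest values were 5.10 TPM in cell 63, 26.6 TPM and 72.95 TPM in Cell__number_113. The highest value stood apart, since the second highest was 59.4 TPM. Prdx6, the peroxiredoxin with 1 catalytic cysteine that draws on glutathione, averaged 19.4 ± 8.19 TPM and ran from 5.52 TPM in cell 31 through a median of 18.6 TPM to 45.45 TPM in cell 85; without cell 31 the lowest value was 5.81 TPM. Txn1, the thioredoxin that resets the cytosolic peroxiredoxins, averaged 18.8 ± 5.77 TPM and ran from 4.13 TPM in Cell__number_111 through a median of 18.3 TPM to 42.9 TPM in cell 40, or 32.1 TPM without that cell. The abundant cytosolic peroxiredoxins of many other cell types came lower. Prdx1 averaged 14.02 ± 5.85 TPM, was listed at 0 in Cell__number_111, and reached 33.04 TPM in cell 40, or 28.2 TPM without it, around a median of 12.98 TPM. Prdx2, which is best known from red blood cells and neurons, averaged 10.97 ± 5.39 TPM and ran from 3.07 TPM in cell 30 through a median of 10.0 TPM to 33.1 TPM in cell 8. In cell 8 Junb, which overlaps Prdx2 on the opposite strand, stood at 34.1 TPM, against a median of 3.24 TPM over cells, and its part in the Prdx2 value was not tested.

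The mitochondrial and peroxisomal members were the scarcest. Prdx5 averaged 6.84 ± 3.51 TPM and ran from 0.32 TPM in cell 53 through a median of 6.24 TPM to 21.7 TPM in cell 92, where the second highest cell had 15.0 TPM. Prdx3, the peroxiredoxin of the mitochondrial matrix, averaged 6.30 ± 2.90 TPM and ran from 0.61 TPM in Cell__number_105 through a median of 5.94 TPM to 16.7 TPM in cell 85. Both were detected in all but 1 cell. Cat averaged 2.02 ± 1.39 TPM around a median of 1.74 TPM, and its highest value was 7.46 TPM in cell 29. It was listed at 0 in 3 short-total cells, among them cell 92, passed 1 TPM in 85 cells (78.7%, exact 95% interval 69.8% to 86%, counting error only), and was the lowest of the 10 in 96 cells.

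**Figure D1:**
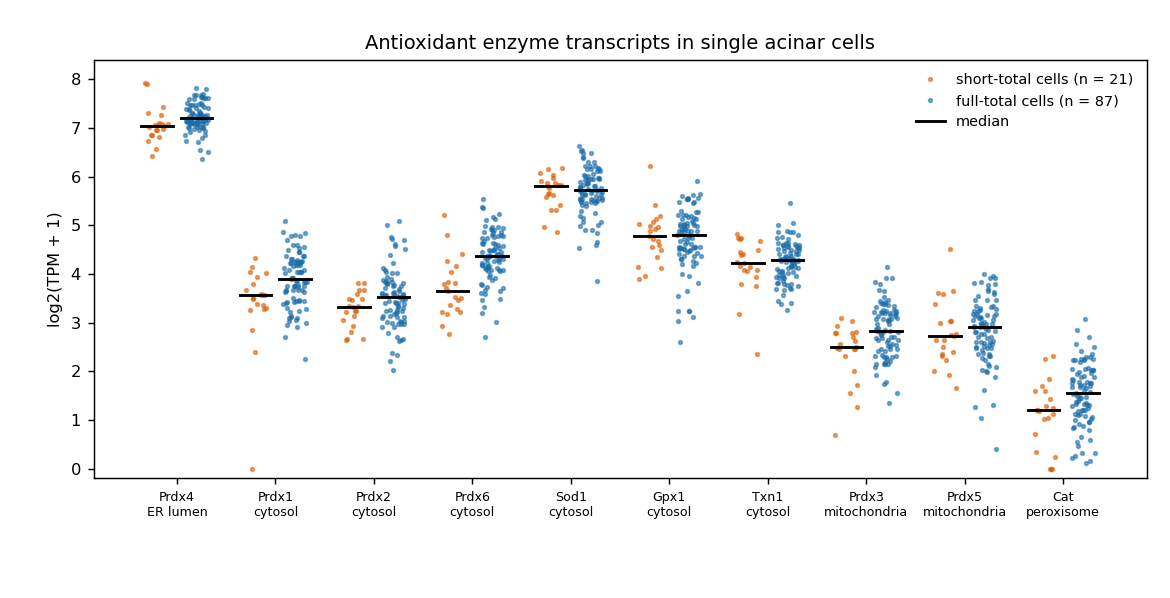
Level of each member as log2(TPM + 1) (vertical axis) in the 21 short-total cells (left column of each pair) and the 87 full-total cells (right column), 1 point per cell, with a bar at the median. Prdx4 lies above all other members in both sets of cells, with medians of 130.3 TPM (short-total) and 146.7 TPM (full-total), and Cat lies lowest.

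Detection was close to complete. In all, 6 of the 10 members (Prdx4, Prdx2, Prdx6, Sod1, Gpx1 and Txn1) reached 1 TPM in each cell, beside 4.03% of the 19969 genes above 0 in any cell and 11.1% of the 7227 genes detected in at least 11 cells. Prdx1, Prdx3 and Prdx5 each missed 1 cell, and no single cell was behind all of these: Prdx1 missed Cell__number_111, Prdx3 Cell__number_105 and Prdx5 cell 53. All 10 members passed the filter of 11 cells. Cell__number_111 had the lowest Txn1, a Prdx4 of 85.3 TPM that was the second lowest of all cells, and both Prdx1 and Cat listed at 0, while its Sod1 (56.04 TPM) and Prdx2 (10.99 TPM) lay above their medians over cells.

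The order of the levels was clear at both ends and not in the middle. Within a cell, Prdx4 exceeded Sod1 by 1.496 ± 0.54 on the log2(TPM + 1) scale (mean and SD over cells), and it did so in every cell. Sod1 exceeded Gpx1 by 0.98 ± 0.77, in 100 cells, and Prdx3 exceeded Cat by 1.31 ± 0.82, in 93.5% of cells. The mean differences between the other neighbours were smaller than their spread over cells. Gpx1 exceeded Prdx6 by 0.48 ± 0.77 in 84 cells, Txn1 exceeded Prdx1 by 0.46 ± 0.64 in 81, Prdx1 exceeded Prdx2 by 0.32 ± 0.79 in 77 and Prdx2 exceeded Prdx5 by 0.64 ± 0.83 in 89. For 2 neighbouring pairs the order was a matter of the cell: Prdx6 was above Txn1 in 56 cells with a mean difference of -0.01 ± 0.69, and Prdx5 was above Prdx3 in 59 with 0.07 ± 0.85.

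Set against the rest of its family, Prdx4 alone outweighed the other peroxiredoxins together. TPM ratios within a cell do not depend on how that cell was scaled. The ratio of Prdx4 to the sum of Prdx1, Prdx2, Prdx3, Prdx5 and Prdx6 had a median of 2.65, ran from 1.15 in cell 85 to 5.28, and was above 1 in every cell. Against single cytosolic peroxiredoxins the median ratio was 7.87 for Prdx6, 11.2 for Prdx1 and 14.4 for Prdx2. Against the mitochondrial peroxiredoxins it was 23.7 for Prdx5 and 25.7 for Prdx3. The smallest margin was over Sod1, with a median ratio of 2.75 and a range of 1.17 in cell 88 to 12.2.

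By compartment, the ER and the cytosol held nearly equal shares of the 10 transcripts. Prdx4, the sole ER member, made up 48.3% ± 5.49 of the summed TPM of the 10 genes (SD over cells, range 33.01% to 64.8%), and the 6 cytosolic members together made up 46.8% ± 5.66. The 2 mitochondrial members made up 4.27% ± 1.37, and peroxisomal Cat 0.66% ± 0.45. Prdx4 was above the sum of the 6 cytosolic members in 56 cells, with a median ratio of 1.03, and above the sum of all 9 other members in 41 cells, with a median ratio of 0.92. The median ER share was 47.7% among short-total cells, against 48.2% among full-total cells.

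**Figure D2:**
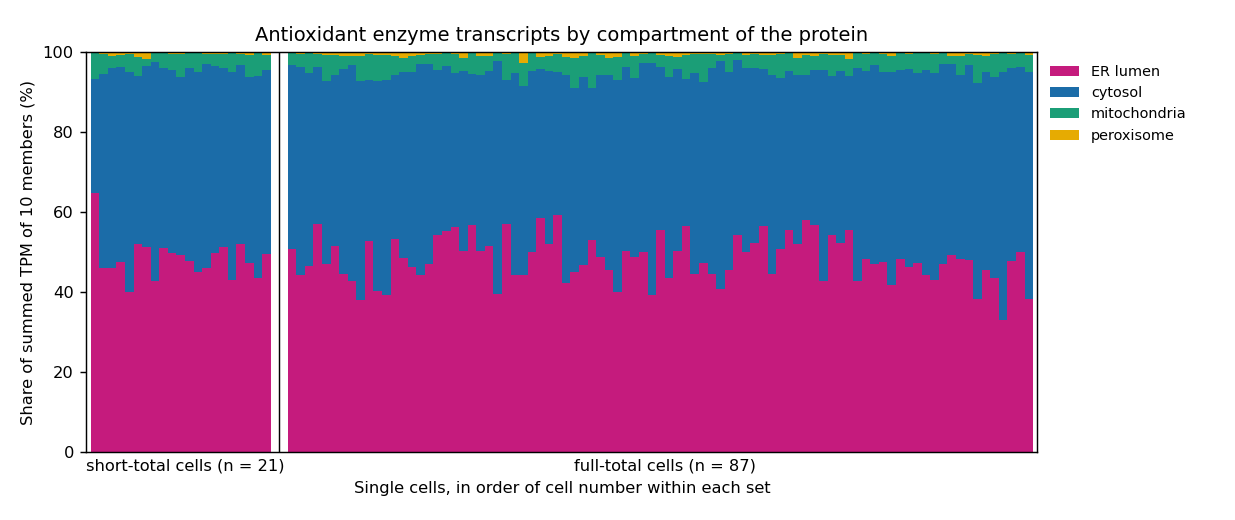
Share of the summed TPM of the 10 members by main compartment of the protein (vertical axis, percent), 1 bar per cell in order of cell number, the 21 short-total cells left and the 87 full-total cells right. The ER share (Prdx4) runs from 33.01% to 64.8%, and the mitochondrial and peroxisomal shares are thin in both sets.

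Some partner genes of Prdx4 in the ER were likewise abundant and others were not, and the other peroxidases of that compartment were scarce. Ero1lb, the Ero1 oxidase known as the pancreatic form, averaged 35.1 ± 10.1 TPM and was detected in every cell, while its widely expressed paralog Ero1l averaged 0.57 TPM and was detected in 16 cells. Prdx4 exceeded Ero1lb in every cell, with a median ratio of 4.399. Gpx8, a glutathione peroxidase of the ER membrane, was detected in 18 cells, and Gpx7, its relative in the ER lumen, in 0 cells. A count of 0 allows up to 2.78% of cells at or above 1 TPM (3 cells, counting error only), and the highest Gpx7 value was 0.56 TPM. The protein disulfide isomerases with the highest means of their list lay above, level with and below Prdx4. Pdia2, the pancreatic isomerase, averaged 929.6 ± 162.8 TPM. P4hb, the founding member of the family, averaged 146.3 ± 35.8 TPM, and Prdx4 was above it in 59 cells with a median ratio of 1.01. Pdia6 averaged 38.2 ± 11.2 TPM. Pdia4, named for its variation and not its level, averaged 10.6 ± 7.22 TPM.

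In the cytosolic and mitochondrial systems some members stood far above their paralogs and others level with them. Sod1 exceeded Sod2, the manganese superoxide dismutase of mitochondria, in every cell, with a median ratio of 17.5, and Sod2 averaged 2.91 ± 0.93 TPM. The extracellular Sod3 reached 1 TPM in 0 cells, with a highest value of 0.25 TPM, and Ccs, the chaperone that loads copper into Sod1, averaged 3.96 ± 2.35 TPM. Txn1 exceeded the mitochondrial Txn2 in 97 cells with a median ratio of 1.78, and Txn2 averaged 10.8 ± 4.02 TPM. Gpx1 and Gpx4, the glutathione peroxidase that acts on lipid peroxides, were level: Gpx1 was higher in 52 cells, and Gpx4 averaged 28.7 ± 9.88 TPM. Thioredoxin reductase transcripts were far below those of the thioredoxins. Txnrd1, the cytosolic reductase, averaged 1.01 TPM and was detected in 45 cells, and the mitochondrial Txnrd2 averaged 1.36 TPM and was detected in 50. Srxn1, the sulfiredoxin that repairs overoxidized peroxiredoxins, was detected in 6 cells.

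Several of these genes, Prdx1, Srxn1 and Txnrd1 among them, are known targets of NRF2 (Nfe2l2), the transcription factor that KEAP1 keeps low in unstressed cells. Nfe2l2 was detected in 21 cells and Keap1 in 66. The induced targets Nqo1 and Hmox1 were detected in 1 and 13 cells, and Gclc, the catalytic subunit of glutathione synthesis, in 11. The ferritin chains stood high, Ftl1 at 392.8 ± 82.1 TPM and Fth1 at 210.4 ± 38.1 TPM, and Gclm, the modifier subunit of glutathione synthesis, averaged 7.06 ± 3.78 TPM and was above Gclc in 98.1% of cells. The glutathione transferase Gstp1 averaged 317.3 ± 87.8 TPM and Gstm1 26.2 ± 9.48 TPM, so Gstp1 stood far above Gpx1 and Gstm1 close to it.

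NRF2 binds the antioxidant response element, whose core was searched as TGACNNNGC on both strands in windows from 250 bases before to 50 bases after each gene's start (RefSeq, GRCm38.p6). Of the 9 members with a window, 2 held the core, Prdx1 and Sod1, beside 12.4% of all 32851 windows. Both matches were on the opposite strand of the gene, and each is shown in the direction of the gene with the match in capitals: Prdx1 at chr4:116685451-116685489 and Sod1 at chr16:90220691-90220729, both on the plus strand.
Prdx1: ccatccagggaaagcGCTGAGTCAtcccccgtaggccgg
Sod1: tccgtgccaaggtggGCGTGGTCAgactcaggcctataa
The Prdx1 match begins 133 bases before the start of the gene and the Sod1 match 56 bases before it. A match describes these letters only.

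None of the 10 members counted as variable between cells. The squared coefficient of variation (CV) of each gene was set against a lowess trend on mean TPM over the 7227 tested genes, and a gene counted as variable at or above 2 times the trend. By this rule 12% of all tested genes were variable and 0 of the 10 members were. The members' ratios to the trend ran from 0.63 to 1.31 with a median of 0.96, beside 1.00 over all tested genes. Prdx4 had the smallest CV of the 10, 0.214. Against the trend Prdx4 and Txn1 were the lowest and nearly level, with a squared CV at 0.63 and 0.64 times. Gpx1 (1.31 times) and Prdx2 (1.25 times) were the highest of the 10. Cat had the largest CV, 0.687, but lay at 0.82 times the trend, since genes near 2 TPM vary widely between cells. Without cells 31 and 40, Prdx1 lay at 0.99 times the trend, Prdx4 at 0.61 times and Txn1 at 0.54 times. Txn1 was then the lowest of the 10.

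**Figure D3:**
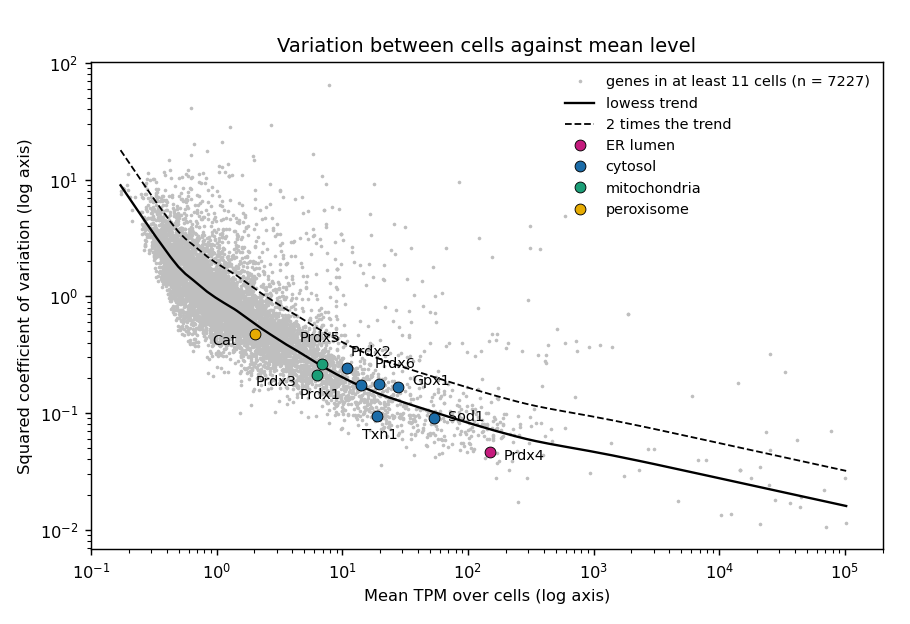
Squared CV over all cells (vertical axis, log scale) against mean TPM (horizontal axis, log scale) for the 7227 tested genes (grey), with the lowess trend (solid line) and 2 times the trend (dashed line). The 10 members, coloured by compartment, all lie below the dashed line, with Prdx4 at 0.63 times the trend and Gpx1 at 1.31 times.

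Variable genes did occur among the partners, beside 12% of all tested genes. Of the lists given here only the ER chaperones stood well above that share. Txnip, the inhibitor that binds thioredoxin, averaged 21.9 ± 19.6 TPM, ran from 1.15 TPM in cell 41 to 129.5 TPM in Cell__number_113, and lay at 5.76 times the trend, against 0.64 times for its target Txn1. Of the thioredoxin and glutaredoxin genes other than Txn1, 1 of 11 tested was variable (Txnip), and of the glutathione genes other than Gpx1, 2 of 18 were, Chac1, which degrades glutathione, lying highest at 7.70 times. Among NRF2 and its targets it was 1 of 16 (Osgin1, at 5.39 times the trend). Among ER oxidative folding genes it was 2 of 16, of which Pdia4 lay at 2.37 times, and among ER chaperones 4 of 12, with Hspa5 (BiP) at 3.92 times. None of 8 mitochondrial antioxidant genes, of 23 respiratory chain genes or of 9 selenoprotein genes was variable. Sod2 lay at 0.229 times the trend, lower than all but 0.069% of tested genes. Its longest annotated coding transcript has 5861 bases, against 990 for Prdx4, and the part of transcript length in the spread was not tested.

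The 10 members co-varied weakly over cells. The median Spearman correlation of log2(TPM + 1) over their 45 pairs was 0.19, from -0.04 for Sod1 with Cat to 0.34 for Prdx4 with Txn1 (Pearson 0.40, 0.40 without the 2 farthest cells), and 43 pairs were positive. All pairs of the 3730 genes detected in at least 54 cells had a median of 0.08 and a 90th percentile of 0.23. The pairs share each cell's scaling and depth, and after median-of-ratios scaling, which sets cells to a common median gene, the members' median was 0.04 beside 0.01 for all pairs. Within the 21 short-total cells the members' median was 0.12, and within the 87 full-total cells it was 0.16. Levels also moved with the number of genes detected in a cell, with a Spearman correlation of 0.52 for Cat, 0.42 for Prdx6, 0.39 for Prdx4 and 0.14 for Gpx1, the lowest of the 10. The part of that number in the correlations was not tested.

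Among the 3730 genes in at least 54 cells the 5 closest to Prdx4 were Tmed6, a cargo receptor of the early secretory pathway (Spearman 0.58, Pearson 0.55), Ppib, the ER cyclophilin (0.56, Pearson 0.56), Sec11c, a signal peptidase subunit (0.56, Pearson 0.56), Gstp1 (0.55, Pearson 0.51) and Selenof, an ER selenoprotein (0.55, Pearson 0.51). Without the 2 farthest cells the Pearson values of these 5 lay between 0.53 and 0.60. After median-of-ratios scaling the Spearman values lay between 0.23 for Gstp1 and 0.42 for Tmed6. For Prdx1 the 5 closest were Mif, Swi5, Arf4, Ppia and Ddx39, from 0.47 for Mif (Pearson 0.55) to 0.44 for Ddx39 (Pearson 0.45), and Pearson values of 0.42 to 0.47 without the 2 farthest cells. For Prdx5 they were Ift52, Aldh1a1, Eif6, Ppib and Pcbp1, from 0.41 for Ift52 (Pearson 0.38) to 0.37 for Pcbp1 (Pearson 0.36), and Ift52 had 0.06 within the short-total cells. After median-of-ratios scaling the 5 values lay between 0.27 and 0.35 for Prdx1 and between 0.13 and 0.34 for Prdx5. The closest gene of the remaining members was Sgta for Prdx2 (0.39), Dnajb11, an ER co-chaperone, for Prdx6 (0.56), Aimp1 for Sod1 (0.42), Rpl36al for Gpx1 (0.42), Rbx1 for Txn1 (0.49), Fkbp4 for Prdx3 (0.47) and Psmd3 for Cat (0.52), each over all cells. Their Pearson values ran from 0.41 to 0.54, and from 0.37 to 0.53 without the 2 farthest cells. After median-of-ratios scaling their Spearman values ran from 0.25 for Sgta to 0.42 for Rbx1. Within full-total cells they ran from 0.38 for Aimp1 to 0.55 for Rbx1. Within short-total cells they ran from 0.09 for Fkbp4 to 0.58 for Aimp1, with 0.16 for Dnajb11.

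Against whole lists of genes the pattern was broad rather than limited to the ER. Prdx4 had a Spearman correlation of 0.50 with the mean z-score of 16 ER oxidative folding genes (Pearson 0.45, 0.45 without the 2 farthest cells), where the genes detected in at least 54 cells had a median of 0.22 and a 90th percentile of 0.42. It had 0.42 with 12 ER chaperones (Pearson 0.41, 0.35 without the 2 farthest cells), 0.56 with 9 genes of ER selenoproteins and selenium use (Pearson 0.57, 0.52 without them) and 0.56 with 23 respiratory chain genes (Pearson 0.54, 0.49 without them). The 90th percentile over genes in at least 54 cells was 0.37 for the ER chaperones, 0.38 for the selenoprotein list and 0.38 for the respiratory chain. After median-of-ratios scaling the values of Prdx4 were 0.02, -0.01, 0.22 and 0.18, in the same order of lists. The ER folding and ER chaperone values thus lay near 0 on that scale, and the selenoprotein and respiratory chain values did not. Percentiles over all genes are not given on that scale. Prdx6, a cytosolic member, had 0.52 with the ER chaperones (Pearson 0.51, 0.48 without the 2 farthest cells) and 0.31 after that scaling. It was 0.43 within full-total cells and -0.07 within the 21 short-total cells. Cat had its highest list value with the 22 other peroxisomal genes, 0.43 (Pearson 0.50, 0.44 without the 2 farthest cells), and 0.29 after median-of-ratios scaling. Txn1 had 0.25 with the respiratory chain and -0.33 with ER oxidative folding after that scaling, against 0.47 and 0.08 as deposited.

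**Figure D4:**
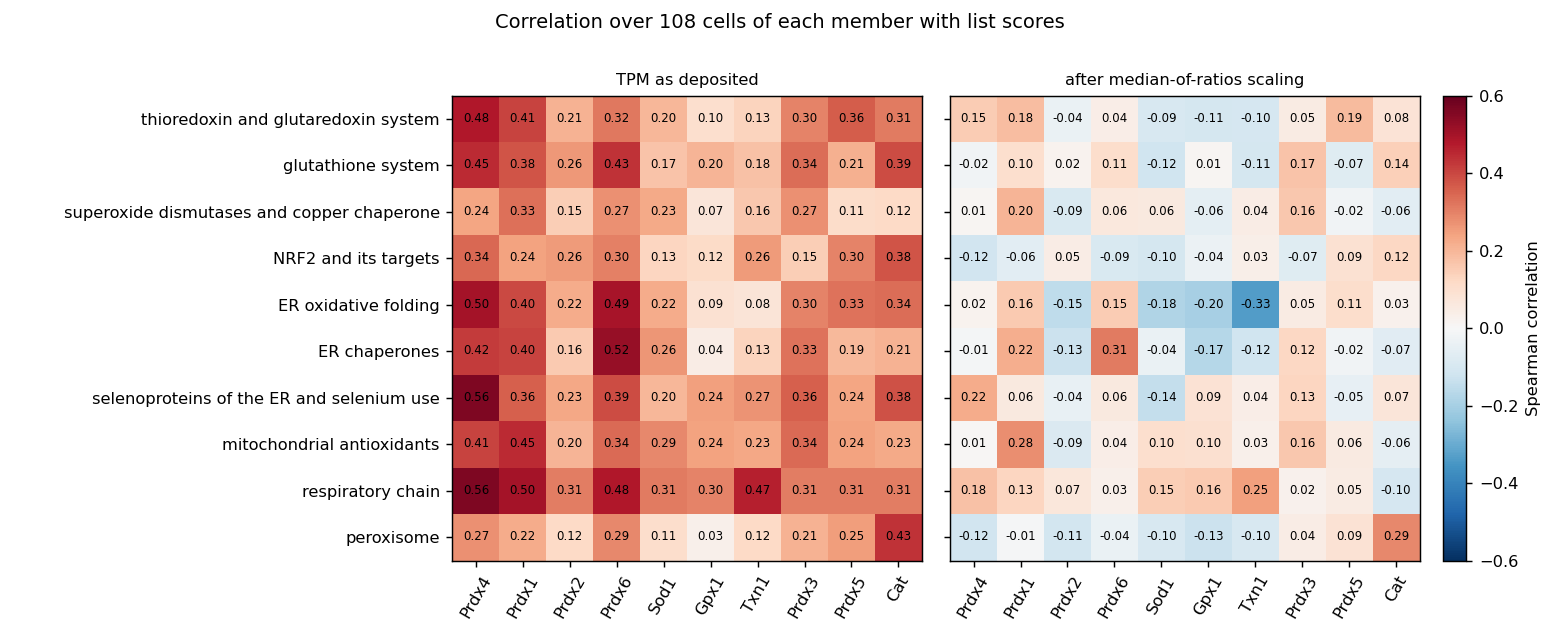
Spearman correlation over all cells of each member (columns) with the mean z-score of lists of other genes (rows), on the TPM as deposited (left) and after median-of-ratios scaling (right); the colour scale gives the correlation. Values for Prdx4 with ER oxidative folding are 0.50 on the left and 0.02 on the right, and Cat with the peroxisome keeps 0.29 on the right.

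The 21 short-total cells differed from the 87 full-total cells by less than 1 log2 unit in all 10 members. The number of members at or past 1 on the log2(TPM + 1) scale was 0 of 10 in either direction, beside 0.692% of the 7227 tested genes lower and 0.194% higher in short-total cells. The median difference of the members, short-total minus full-total, was -0.19, and 9 of 10 were below 0, beside a median of -0.15 and 70.0% below 0 over all tested genes. All 10 members were detected in at least 54 cells, and the 3730 genes of that kind had a median of -0.24 with 82.3% below 0, so the members' median was lower than that of all tested genes and higher than that of these genes. Prdx6 had the largest difference, with a median of 11.6 TPM among short-total cells, against 19.6 TPM among full-total cells (-0.70, the 2.80th percentile of tested genes). The ranges of Prdx6 overlapped, from 5.81 to 36.05 TPM among short-total cells, against 5.52 to 45.45 TPM among full-total cells. Prdx4 had a median of 130.3 TPM among short-total cells, against 146.7 TPM among full-total cells (-0.17). Sod1, the sole member above 0, had 54.6 TPM among short-total cells, against 51.6 TPM among full-total cells (0.08). The short-total cells also had fewer genes detected, a median of 3939 against 4224, and the part of this in the differences was not tested.

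Other genes of the same systems mostly had lower medians in short-total cells, by amounts that varied between lists. Most genes did so: the median was -0.15 with 70.0% below 0 over all tested genes, 0.692% of them past 1 log2 unit. It was -0.24 with 82.3% below 0 over genes in at least 54 cells. The list values are on the TPM as deposited. All 12 ER chaperones were below 0 with a median difference of -0.88 and 4 past 1 log2 unit, Hspa5 having a median of 50.95 TPM among short-total cells, against 107.3 TPM among full-total cells (-1.06). Of 16 ER oxidative folding genes 15 were below 0, with a median of -0.41 and 1 past 1 log2 unit, and Ero1lb had a median of 24.6 TPM among short-total cells, against 37.7 TPM among full-total cells (-0.59). Mitochondrial Txn2 stood at 7.06 TPM among short-total cells, against 11.7 TPM among full-total cells (-0.65). The respiratory chain genes had a median of -0.28, close to that of genes in at least 54 cells, with 22 of 23 below 0 and 0 past 1 log2 unit. NRF2 and its targets had a median of -0.12, with 10 of 16 below 0. Genes above 0 included Txnip (0.08) and Gclm (0.01). Nfe2l2 (0.15) and Hmox1 (0.29) were also above 0, with medians below 1 TPM in both sets of cells. After median-of-ratios scaling the median of all tested genes was -0.002, the members' median was 0.07 with 4 of 10 below 0, and Prdx6 stood at -0.43.

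**Figure D5:**
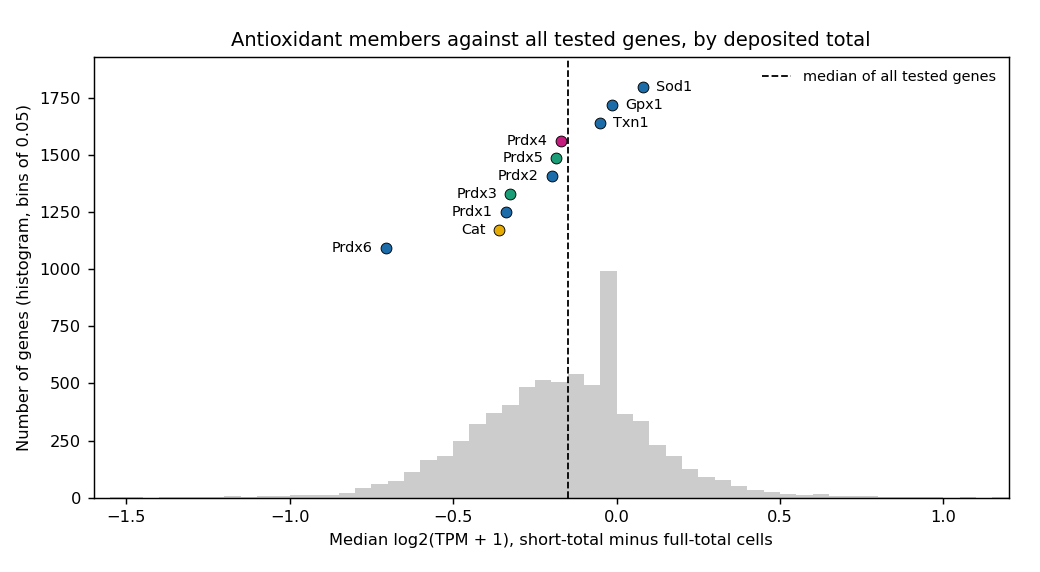
Median log2(TPM + 1) of short-total minus full-total cells (horizontal axis) for the 7227 tested genes (grey histogram, number of genes on the vertical axis) and for the 10 members (points, coloured by compartment with magenta for the ER, blue for the cytosol, green for mitochondria and yellow for the peroxisome; their height only separates the labels). The members lie around the median of all genes, the dashed line at -0.15, and Prdx6 lies farthest to the left at -0.70.

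Within the full-total cells, Gpx1 was the member with the strongest correlation with the cell number that the labels give. Its Spearman correlation with cell number over these 87 cells was -0.42, the farthest from 0 of the 10, and its medians were 21.98 TPM in the 40 cells numbered 49 to 91 and 31.02 TPM in the 47 numbered up to 48. Prdx4 had -0.27, with medians of 142.1 TPM in cells 49 to 91 and 152.4 TPM in cells up to 48. Sod1 had 0.19, with 58.7 TPM in cells 49 to 91 and 48.6 TPM in cells up to 48. Prdx5 had -0.26 and Cat -0.18, and the remaining members ran from -0.10 for Prdx2 to 0.004 for Txn1. The same correlation was not taken over all tested genes, so how unusual these values are was not tested. The bound at 48 was taken from earlier work on another gene family in these cells, and the labels do not say what the numbering follows, so animal, day and plate cannot be told apart here.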

How the data were processed

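The deposited table, made by the authors, held TPM per gene for 108 cells, with 2 decimals. The unit was read from the values, since most columns sum to 1000000. The tools STAR 2.4.2a, RSEM 1.2.21 and edgeR and the build mm10 are listed, without their roles, per the submitters' processing notes. TPM keep no depth, so reads per cell are unknown. Columns were matched to cells by cell number, and 0 columns belonged to other samples. Of all rows, 44548 matched a gene symbol and 25226 were 0 in every cell.

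From these values, detection (at or above 1 TPM), exact Clopper-Pearson 95% intervals, within-cell ratios, squared CV against a lowess trend (span 0.3, genes in at least 11 cells) and Spearman and Pearson correlations of log2(TPM + 1) were computed with Python 3.11.15, pandas 2.3.3, scipy 1.17.1 and statsmodels 0.14.6. A pseudocount of 1 understates fold changes of low genes. Short-total cells are those below 999900 TPM. Scripts were tested on simulated data. With 1 group and no animal named, no test between groups was run and differences are descriptions. The members and gene lists were chosen with earlier results of these data known. Named genes were all members, up to 4 genes of each list (by mean the top 3, by height above the trend the top 1), a fixed set of paralogs and regulators, and the genes closest in correlation. Doublets were not called, and all cells were kept. A result among the other genes is not reported here. Alternatives covered scaling, pseudocount, detection level, filters and the cells used.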

Additional observations from a re-analysis of the deposited data

How the results depend on the processing

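Prdx4 was the highest member in 100% of cells in the short-total and the full-total cells alike, and 0 members were variable under every trend span, limit, filter and scaling tried. The share of all tested genes called variable ran from 5.71% at 3 times the trend to 21.7% at 1.5 times, with 12% in the main setting. Members in every cell numbered 6 at 1 TPM, 8 above 0 TPM, 4 at 5 TPM and 2 at 10 TPM, and 8 at 1 TPM in full-total cells alone. The share over all genes was taken only at 1 TPM over all cells. It was 4.03% of genes above 0 in any cell and 11.1% of tested genes. How unusual the other counts are was not tested. Median-of-ratios scaling moved the members' median pair correlation to 0.044, Prdx4 with ER oxidative folding to 0.022 and Prdx4 with ER chaperones to -0.012. It also moved the members' median short-total minus full-total difference to 0.074 and that of all tested genes to -0.002. Prdx4 with ER chaperones was 0.62 in short-total and 0.26 in full-total cells. Prdx4 with ER oxidative folding was 0.36 when taken over the steps from 1 cell number to the next. At a limit of 0.5 log2 units, 1 member, Prdx6, counted as lower in short-total cells. Beside it, 11.5% of the 7227 tested genes were past that limit in either direction. The Prdx6 difference was -0.45 with a pseudocount of 10 and -0.43 after median-of-ratios scaling. The causes were not tested. Of the summary values under the alternatives, 9 moved by 1 SD or more (over cells for levels and shares, over member pairs or members for the rest; for a count, by more than 1.5 times) and 49 did not. Leaving out cells 31 and 40 was chosen for the correlations after seeing the data and gave 0.17 for the members' pairs, 0.51 for Prdx4 with ER oxidative folding and 0.42 for Prdx4 with ER chaperones. No paired analysis was possible because the labels give 1 group. Depth is unknown, so a value of 0 cannot be told apart from a transcript that was missed.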
